A study of Mus musculus with 8 samples.

Results

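The 35 genes described here make, lengthen, desaturate, activate, bind and burn fatty acids in cultured mouse astrocytes. They were picked by symbol, as a list of enzymes, carriers and regulators, from the 21878 genes in the deposited expression table, and all 35 were found. They were read in 4 libraries of untreated astrocytes and 4 libraries of astrocytes given a cocktail of interleukin-1α (IL-1α), tumor necrosis factor α (TNFα) and the complement protein C1q. Both groups came from wild-type C57BL/6 mice at postnatal day 0. Per the labels, total RNA was isolated with TRIzol and polyadenylated RNA was sequenced from stranded TruSeq libraries. The labels give no dose, time of exposure or culture medium, and do not say whether the 4 libraries of a group came from separate cultures or animals. Every p-value below therefore measures the spread between libraries, which may be technical. In 3 of the 4 cocktail libraries the treatment label spells C1q with another digit, so groups were taken from the sample titles.

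Fatty acids are built from acetyl units by acetyl-CoA carboxylase and fatty acid synthase, then lengthened in the endoplasmic reticulum by a cycle whose first and rate-setting step is a member of the ELOVL family. ELOVL1, ELOVL6 and ELOVL7 act mainly on saturated or monounsaturated chains, whereas ELOVL2 and ELOVL5 work with the desaturases FADS1 and FADS2 to turn dietary linoleic and α-linolenic acids into arachidonic and docosahexaenoic acids. Astrocytes are the main brain cells that make these polyunsaturated fatty acids and that burn fatty acids, by beta-oxidation in mitochondria and peroxisomes. Long saturated lipids that depend on ELOVL1 have been described as carriers of the toxicity of reactive astrocytes, and the cocktail is the common way to obtain such cells.

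Libraries held 19195898 to 20640490 fragments. Values are FPKM, the fragments of a gene per kilobase of its length, scaled to the depth of the library, which allows levels of different genes to be set side by side. For a gene of 2 kb, 3 fragments come to 0.0727 to 0.0781 FPKM, the limit that a count of 0 allows, for counting error only. Cocktail libraries 1 and 2 differed by a chi-square of 2.29 per gene and libraries 3 and 4 by 2.55, against 4.12 to 6.79 between these pairs. The astrocyte genes Gfap, Aqp4, Slc1a3 and Aldh1l1 were present in every library, and of 10 astrocyte markers 1, Gjb6, stayed below 1 FPKM. The summed level of these markers was 1053 to 1188 FPKM in untreated and 845 to 872 in cocktail libraries. Of 9 tested, 7 fell, with log2 changes from -0.20 (Slc1a3) to -1.57 (Aldoc). Among them, Gfap went from 412 ± 29.6 to 189 ± 5.41 FPKM and Aldh1l1 from 91.0 ± 3.14 to 55.4 ± 1.07. Slc1a2 rose from 9.73 ± 0.579 to 52.3 ± 1.17 FPKM and Aqp4 from 165 ± 4.43 to 253 ± 5.12 (SD, n = 4). For these and the following marker counts, 41.1% of all genes tested fell and 26.6% rose. Among the counted markers, S100b, Rgs5 and Ccdc153 reached 1 FPKM only in untreated libraries and Lum only in cocktail libraries. Markers of neurons summed to 140 to 158 and 52.5 to 59.8 FPKM, most of it from Stmn2, and of 4 tested, 2 fell and 1 (Gad1) rose. Rbfox3, Snap25, Dcx, Slc17a7 and Nefl stayed below 1 FPKM. Markers of the oligodendrocyte lineage, most of it from Olig1, summed to 212 to 226 and 123 to 127 FPKM, and of 6 tested, 4 fell and 1 (Pdgfra) rose. Mog was at 0 throughout, and Mbp, Mag and Sox10 stayed below 1 FPKM. Mural cell markers summed to 1078 to 1222 and 244 to 275 FPKM. Most of this came from Acta2 (581 ± 31.7 and 111 ± 5.48) and Tagln (555 ± 32.0 and 116 ± 5.72; SD, n = 4). Of 5 mural markers tested, 4 fell and 1 (Notch3) was not called, while Kcnj8, Des and Abcc9 stayed below 1 FPKM. Ependymal markers, most of it from Foxj1, summed to 155 to 172 and 83.8 to 97.7 FPKM, and of 6 tested, 6 fell. Endothelial markers, most of it from Kdr and with Cldn5 at 0, summed to 5.09 to 5.54 and 1.63 to 2.09 FPKM. The sums of fibroblast markers overlapped, at 130 to 156 and 111 to 142 FPKM, but of 8 tested, 4 rose and 3 fell, with Lum at 0.237 ± 0.063 and 7.69 ± 1.03 FPKM and Dcn at 1.45 ± 0.146 and 8.31 ± 2.58 (SD, n = 4). Microglial markers summed to 11.4 to 13.0 FPKM in untreated libraries and to 15.8, 16.4, 35.01 and 47.3 FPKM in cocktail libraries 1 to 4. Of 5 microglial markers tested, 5 rose, with overlap between groups in Csf1r and Tyrobp. The part of these shifts in the results was not tested. In RNA of whole cultures, fewer cells of a type and less RNA per cell cannot be told apart.

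Of the 35 genes, 31 reached 1 FPKM in at least 4 of the 8 libraries and entered the test, limma on log2(FPKM + 1) over 11845 genes with Benjamini-Hochberg adjustment. A gene is said to have risen or fallen where its adjusted p was under 0.05. Among the 31 tested genes, 8 rose, against 26.6% of all genes tested, 15 fell, against 41.1%, and 8 were not called. The 23 calls make 74.2% of the tested members, close to the 67.7% called over all genes, so the number of calls is not by itself a feature of fatty acid genes. The 4 untested genes were Acacb, Elovl2, Fads6 and Ppara. No overlap between untreated and cocktail values was seen in 21 of the 31 tested members, against 62.7% of all genes tested, and in Acacb and Fads6 of the untested ones. Without cocktail libraries 1 and 2 the count was 8 higher and 14 lower, and without libraries 3 and 4 it was 9 and 16. The median log2 change was -0.10 over the members and -0.05 over all genes tested. Single members lay between -0.73 and 0.93. No member reached a 2-fold change on this scale, which compresses differences of genes near 1 FPKM. Together the 35 genes took 0.698% ± 0.013 of all fragments without and 0.602% ± 0.008 with cocktail (SD, n = 4).

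**Figure D1:**
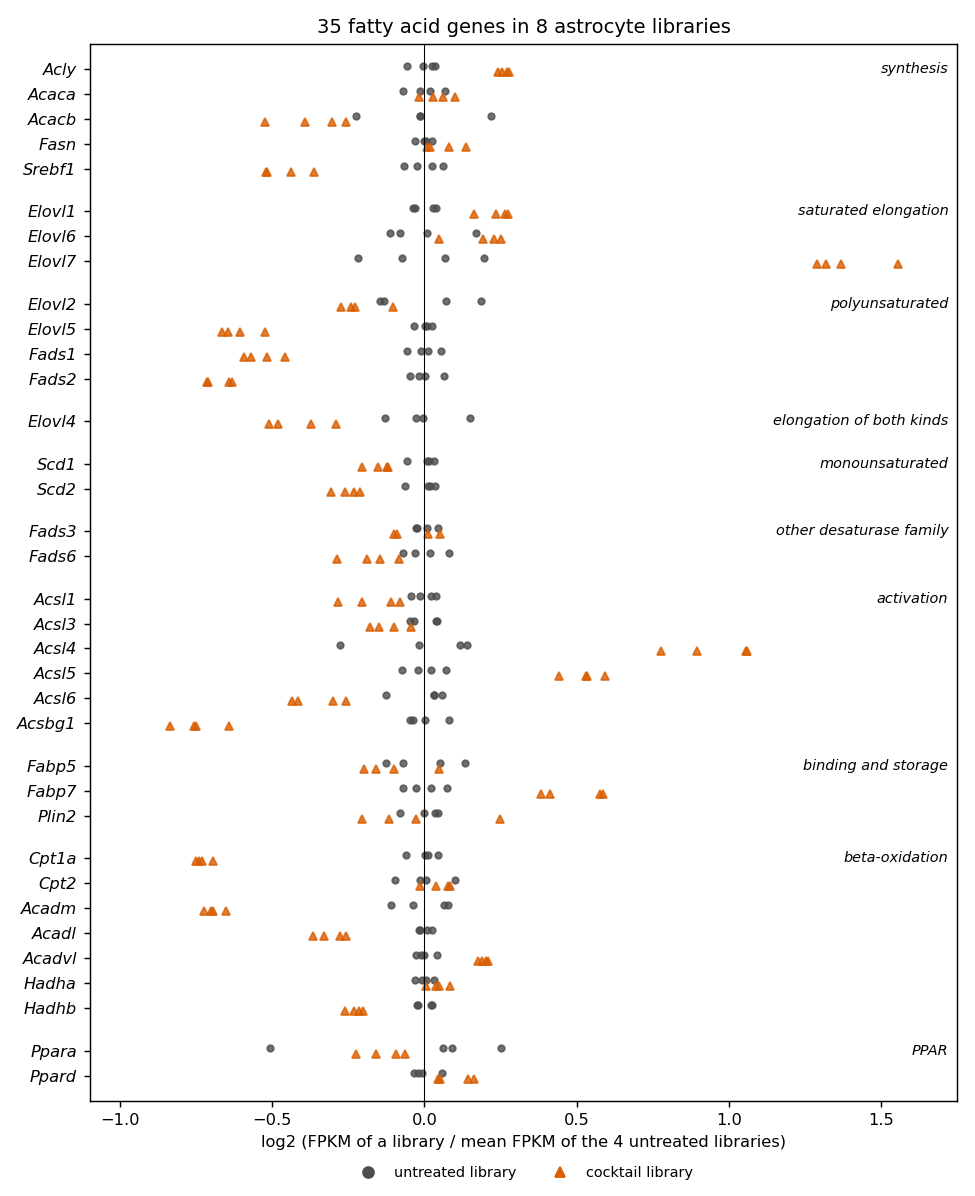
Level of each of the 35 genes in every library, as log2 of its FPKM over the mean of the 4 untreated libraries, with genes grouped by role; grey circles are untreated and orange triangles cocktail libraries. Elovl7, Acsl4, Acsl5 and Fabp7 stand to the right of all their untreated values, and Acsbg1, Cpt1a, Acadm, Fads2 and Elovl5 to the left.

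Elovl1, Elovl6 and Elovl7, the elongase genes grouped here under saturated chains, were called higher with the cocktail. Elovl4, which lengthens both saturated and polyunsaturated chains, fell and is described below. Elovl7, which lengthens long saturated chains, stood at 1.35, 1.1, 1.47 and 1.22 FPKM in untreated libraries 1 to 4 and at 3.78, 3.14, 3.21 and 3.31 FPKM in cocktail libraries 1 to 4. The groups lay far apart, and every cocktail value was more than double every untreated one. Its mean rose 2.61-fold, from 1.29 ± 0.158 to 3.36 ± 0.288 FPKM (SD, 4 libraries each), with a log2 change of 0.93 (standard error 0.067, limma, adjusted p = 1.3e-07), the largest rise among the members. Elovl7 spans 108214326 to 108287109 of chromosome 13 in GRCm38.

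Elovl1, which makes very long saturated and monounsaturated chains, measured 13.8, 14.5, 13.9 and 14.6 FPKM untreated and 17.1, 17.2, 15.9 and 16.7 FPKM with cocktail. All cocktail libraries exceeded all untreated ones, by a small step. The mean was 1.18-fold higher, at 16.7 against 14.2 FPKM, and the log2 change was 0.22 (standard error 0.035, limma, adjusted p = 0.00015). The gene lies at 118426874 to 118432953 of chromosome 4. Elovl6, which extends palmitate to stearate, had 6.58, 5.88, 5.41 and 5.54 FPKM untreated and 6.68, 6.04, 6.97 and 6.86 FPKM with cocktail, so that the groups overlapped through untreated library 1 and cocktail library 2. Its log2 change was 0.16 (standard error 0.060, limma, adjusted p = 0.037). That call was lost in 8 of 17 alternative analyses, among them those without untreated library 2, 3 or 4 or cocktail library 1, 3 or 4 (limma, adjusted p = 0.059 to 0.11). Without cocktail libraries 3 and 4 together the change was 0.11 (limma, adjusted p = 0.24). All 3 genes of this group were thus called higher, although the steps of Elovl1 and Elovl6 were small. Their summed level was 21.3 ± 0.414 FPKM untreated and 26.7 ± 0.640 FPKM with cocktail (SD, n = 4).

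The elongase and desaturase genes of polyunsaturated fatty acids went the other way. Fads2, the Δ6-desaturase that starts the pathway, was by level the highest of the 35 genes in untreated cells and stood at 444, 463, 438 and 430 FPKM untreated and at 285, 286, 271 and 270 FPKM with cocktail. The cocktail libraries formed a tight group well below the untreated ones. The mean fell 1.60-fold, from 444 ± 14.4 to 278 ± 8.50 FPKM (SD, n = 4), a log2 change of -0.67 (standard error 0.032, limma, adjusted p = 3.2e-09). Fads1, the Δ5-desaturase that acts later in the same pathway, gave 121, 124, 119 and 115 FPKM untreated and 83.7, 87.2, 79.3 and 80.8 FPKM with cocktail. Here too no libraries overlapped. The log2 change was -0.53 (standard error 0.035, limma, adjusted p = 6.4e-08), and the level of Fads2 over that of Fads1 moved from 3.71 ± 0.027 to 3.36 ± 0.061 (SD, n = 4), without overlap.

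Elovl5, the elongase between both desaturase steps, measured 66.1, 65.1, 65.5 and 63.5 FPKM untreated and 41.03, 41.6, 45.2 and 42.7 FPKM with cocktail. Untreated libraries were nearly identical, and the highest cocktail value stayed clear of the lowest of them. The 1.52-fold fall had a log2 change of -0.60 (standard error 0.033, limma, adjusted p = 1.1e-08). Elovl2, the elongase needed for docosahexaenoic acid, was low, with 52, 51, 62 and 69 fragments untreated and 55, 47, 51 and 51 with cocktail. Its 0.742 ± 0.084 and 0.642 ± 0.034 FPKM (SD, n = 4) overlapped, and it was not tested. Thus 3 of 3 tested genes of the polyunsaturated group fell, with a median log2 change of -0.60, and the summed level of the 4 genes went from 629 ± 18.7 to 404 ± 10.4 FPKM (SD, n = 4). Elovl4, which lengthens both saturated and polyunsaturated chains to the longest forms, had 3.12, 2.76, 2.58 and 2.81 FPKM untreated and 2.02, 2.30, 1.98 and 2.18 FPKM with cocktail. It fell without overlap, by 0.29 on the log2 scale (standard error 0.059, limma, adjusted p = 0.00094).

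Fads1, Fads2 and Fads3 are neighbours on chromosome 19 of GRCm38, with Fads3 at 10040855 to 10060113, Fads2 at 10062765 to 10101503 and Fads1 at 10182877 to 10196874. Elovl5 lies at 77917365 to 77984519 of chromosome 9. The start regions of Elovl5 and Fads2 (RefSeq, GRCm38.p6) are shown because both genes belong to the polyunsaturated group and fell. Each run is the 250 bases before the start site, 5′ to 3′ on the strand of the gene. Capitals mark matches on either strand to the CCAAT box (CCAAT), the GC box (GGGCGG), the sterol regulatory element (TCACNCCAC) that SREBP factors bind, the PPAR direct repeat or the NF-kB consensus. The Elovl5 window is chr9:77917115-77917364, plus strand, and the Fads2 window is chr19:10101504-10101753, minus strand.
Elovl5: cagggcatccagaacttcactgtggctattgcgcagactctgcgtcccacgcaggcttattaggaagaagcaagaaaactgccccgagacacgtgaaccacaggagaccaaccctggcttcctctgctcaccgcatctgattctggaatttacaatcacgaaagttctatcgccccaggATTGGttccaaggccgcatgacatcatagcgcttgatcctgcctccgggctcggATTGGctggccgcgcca
Fads2: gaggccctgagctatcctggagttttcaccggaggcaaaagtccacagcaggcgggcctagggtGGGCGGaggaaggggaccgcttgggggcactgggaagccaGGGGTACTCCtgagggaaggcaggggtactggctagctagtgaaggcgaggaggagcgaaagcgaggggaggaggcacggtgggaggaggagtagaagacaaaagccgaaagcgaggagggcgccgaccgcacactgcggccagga
The Elovl5 window held 2 CCAAT boxes on the minus strand, and the Fads2 window held 1 GC box and 1 match to the NF-kB consensus. No sterol regulatory element of these letters was found in either window. RefSeq windows existed for 30 of the 35 genes, 37 windows in all. CCAAT boxes were in 16 of the 37 windows and in 33.9% of all 32851 windows in the table, GC boxes in 24 of 37 and in 32.7% of all. The sterol regulatory element was in 1 member window (Acsl1) and in 1.05% of all, the PPAR repeat (a pair of AGGTCA half-sites with a base between them) in 0 and in 0.0335%. The NF-kB consensus was in 4 member windows (Acacb, Acsbg1, Fads2 and Srebf1) and in 7.25% of all. Such matches describe letters in a window and say nothing about whether a factor binds.

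**Figure D2:**
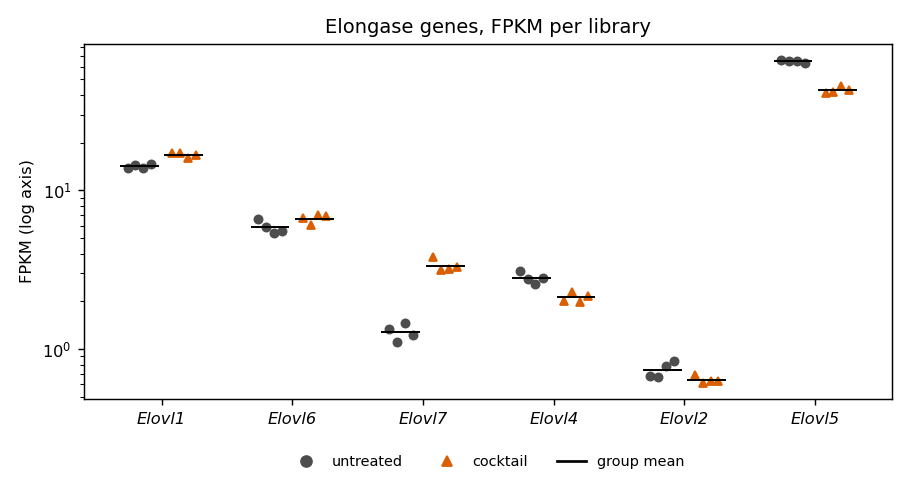
FPKM of 6 elongase genes (log axis) in each library, with grey circles for untreated libraries, orange triangles for cocktail libraries and bars for group means. Elovl1 and Elovl7 sit higher and Elovl5 and Elovl4 lower with cocktail, without overlap, while the libraries of Elovl6 and Elovl2 overlap.

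The make-up of elongase RNA shifted with these opposite moves. Elovl5 held 72.3% ± 0.548 of the summed FPKM of the 6 elongases without and 59.1% ± 1.51 with cocktail (SD, n = 4). Elovl1, Elovl6 and Elovl7 together went from 23.7% ± 0.386 to 37.1% ± 1.37, while the sum over all 6 dropped from 89.9 ± 1.31 to 72.1 ± 1.35 FPKM. Even so, Elovl5 remained the most abundant elongase in every library, 4.58 ± 0.194 times the level of Elovl1 untreated and 2.56 ± 0.203 times with cocktail. Because the share is relative, the fall of Elovl5 alone raises the share of the others. On the FPKM scale the rise of Elovl1, Elovl6 and Elovl7 added up to less than the fall of Elovl5.

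An elongase is only the first enzyme of a 4-step cycle, and its partners did not move as a block. All 6 partner genes on the list were tested, of which 3 rose and 3 fell, beside 26.6% and 41.1% of all genes tested. Hsd17b12, the ketoacyl-CoA reductase of the cycle, rose from 74.5 ± 0.882 to 96.2 ± 6.35 FPKM (SD, n = 4), and Tecr, the enoyl-CoA reductase that closes it, from 142 ± 1.85 to 148 ± 0.695. The dehydratase step is shared by several genes. Hacd2 rose from 15.5 ± 0.935 to 23.0 ± 1.34 FPKM and Hacd3 fell from 53.4 ± 0.820 to 43.0 ± 2.18. Hacd4 fell 2.72-fold, from 23.2 ± 1.24 to 8.53 ± 0.550 FPKM, with a log2 change of -1.35 (standard error 0.049, limma, adjusted p = 3.1e-10), more than any of the 35 members.

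The desaturases that place the first double bond into saturated chains fell slightly. Scd2, the main stearoyl-CoA desaturase of the brain, measured 401, 406, 399 and 379 FPKM untreated and 338, 343, 331 and 320 FPKM with cocktail. Scd1 measured 141, 135, 142 and 143 FPKM untreated and 129, 129, 126 and 122 FPKM with cocktail. In neither gene did libraries overlap. The log2 change was -0.25 for Scd2 (standard error 0.031, limma, adjusted p = 1.8e-05) and -0.15 for Scd1 (standard error 0.029, limma, adjusted p = 0.00072). The call of Scd1 was lost after libraries were rescaled by median ratios, at a log2 change of -0.07 (limma, adjusted p = 0.058). Both lie in a cluster of 4 Scd genes on chromosome 19, between 44203288 and 44407709, and their similar sequences leave it uncertain how fragments were divided between them.

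Scd4, another gene of that cluster, was looked up after the values of Scd1 and Scd2 were known. It had 104, 79, 79 and 65 fragments in untreated and 1, 8, 7 and 5 in cocktail libraries. Scd4 reached 1 FPKM only in untreated libraries, so it entered the test through the group where it was high. Its log2 change was -1.11 (standard error 0.089), and no p-value is given for that reason. Scd4 was at 1.35 ± 0.298 FPKM untreated and 0.0856 ± 0.0514 with cocktail (SD, n = 4), so it added little to the summed Scd level. Scd3, the fourth gene, had 10 fragments or fewer in every library.

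The other desaturase-like genes showed no called change. Fads3, which desaturates sphingoid bases, had 29.4, 28.0, 28.1 and 28.7 FPKM untreated and 29.5, 28.8, 26.8 and 26.6 FPKM with cocktail. Its groups overlapped, with a log2 change of -0.03 (limma, adjusted p = 0.48), beside Fads1 and Fads2 on the chromosome, which fell by 0.53 and 0.67. Fads6, whose substrate is unclear, stayed at or below 1.00 FPKM in all libraries. Its 0.95 ± 0.044 FPKM untreated and 0.842 ± 0.050 with cocktail (SD, n = 4) did not overlap, but it was below the filter.

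**Figure D3:**
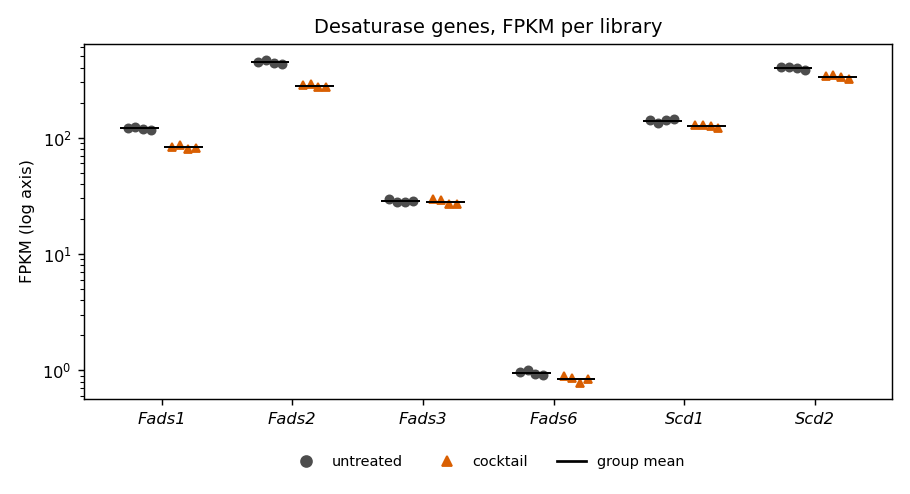
FPKM of 6 desaturase genes (log axis) in each library, with grey circles for untreated libraries, orange triangles for cocktail libraries and bars for group means. Fads2 drops by a somewhat larger step than Fads1, Scd1 and Scd2 drop by smaller ones, and the libraries of Fads3 overlap.

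Genes that make fatty acids from acetyl units were mixed. Acly, which cuts citrate into acetyl-CoA, measured 44.9, 44.1, 42.4 and 45.3 FPKM untreated and 53.6, 53.3, 52.7 and 52.2 FPKM with cocktail. Cocktail libraries were all higher, and the log2 change was 0.26 (standard error 0.028, limma, adjusted p = 5.6e-06). Fasn, fatty acid synthase itself, was at 33.4 ± 0.522 FPKM untreated and 34.8 ± 1.43 with cocktail (SD, n = 4), with overlapping libraries (limma, adjusted p = 0.13). Acaca, the cytosolic acetyl-CoA carboxylase, was at 9.21 ± 0.363 and 9.48 ± 0.324 FPKM, also overlapping (limma, adjusted p = 0.41). After median-ratio rescaling both were called higher, at log2 changes of 0.13 for Fasn and 0.11 for Acaca (limma, adjusted p = 0.0049 and 0.031). Acacb, the mitochondrial carboxylase whose product blocks the entry of fatty acids into mitochondria, was below the filter. It had 1.1, 1.1, 0.95 and 1.29 FPKM untreated and 0.93, 0.85, 0.77 and 0.90 FPKM with cocktail, without overlap. With no filter on low values it was called lower, at -0.18 (limma, adjusted p = 0.020), and the other 3 untested members were not called.

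Srebf1, which encodes the SREBP1 factors that drive transcription of fatty acid synthesis and desaturase genes, fell. Its libraries read 40.6, 41.6, 38.1 and 39.2 FPKM untreated and 29.4, 31.0, 27.9 and 27.8 FPKM with cocktail, with a wide gap between the groups. The fall was 1.37-fold, at a log2 change of -0.45 (standard error 0.041, limma, adjusted p = 1.2e-06). Values are sums over the gene, so the SREBP1a and SREBP1c transcripts were not separated. Of its commonly named targets among the members, Fads1, Fads2, Elovl5, Scd1 and Scd2 fell, Elovl6 and Acly rose, and Fasn and Acaca were not called. Among 13 genes that supply synthesis or control SREBP, 12 were tested, of which 5 rose and 5 fell. Calls were made for 83.3% of those tested, beside 67.7% of all genes tested. Mid1ip1, an activator of acetyl-CoA carboxylase, fell from 107 ± 5.01 to 62.7 ± 4.82 FPKM, and Scap, the escort of SREBP, from 52.8 ± 1.16 to 45.4 ± 2.86. Slc25a1, the mitochondrial citrate carrier, rose from 50.05 ± 1.29 to 62.9 ± 0.550 FPKM, and Srebf2, which governs cholesterol synthesis, from 37.8 ± 0.594 to 47.6 ± 1.5 (SD, 4 libraries each).

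Acyl-CoA synthetases, which couple fatty acids to coenzyme A before any further use, moved in both directions. Acsbg1, a synthetase of astrocytes and other glia, read 77.2, 73.0, 71.2 and 70.6 FPKM untreated and 43.2, 46.8, 43.4 and 40.9 FPKM with cocktail. The groups lay far apart. Its 1.68-fold fall, from 73.0 ± 3.00 to 43.6 ± 2.44 FPKM (SD, n = 4), was the largest log2 fall of the members, at -0.73 (standard error 0.042, limma, adjusted p = 1.7e-08). Acsl6, a synthetase that favours docosahexaenoic acid, went from 14.1, 14.3, 14.1 and 12.6 FPKM to 11.5, 11.2, 10.3 and 10.2 FPKM. It fell without overlap, by 0.32 on the log2 scale (standard error 0.050, limma, adjusted p = 0.00011).

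Acsl4, which prefers arachidonic acid, rose. It read 3.45, 2.62, 3.14 and 3.50 FPKM untreated and 5.91, 5.44, 6.62 and 6.61 FPKM with cocktail, so that the lowest cocktail library was well above the highest untreated one. The rise was 1.93-fold, at a log2 change of 0.78 (standard error 0.078, limma, adjusted p = 2.7e-06). Acsl5, found on mitochondria and endoplasmic reticulum, read 17.9, 16.2, 16.8 and 17.3 FPKM untreated and 24.6, 23.2, 24.7 and 25.7 FPKM with cocktail. It too rose without overlap, 1.44-fold, with a log2 change of 0.50 (standard error 0.040, limma, adjusted p = 3.3e-07).

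Acsl1 and Acsl3 fell by small steps. Acsl1, linked to oxidation and storage, was at 3.16 ± 0.082 and 2.81 ± 0.176 FPKM (SD, n = 4), with a log2 change of -0.13 (limma, adjusted p = 0.040), and Acsl3, a synthetase of lipid droplets, at 13.2 ± 0.432 and 12.2 ± 0.510, with a log2 change of -0.11 (limma, adjusted p = 0.027). Rescaling the libraries by median ratios ended both calls (limma, adjusted p = 0.24 for Acsl1 and 0.40 for Acsl3). So did leaving out untreated library 2 or 3 or cocktail library 2 or 4, and for Acsl1 untreated library 1 (limma, adjusted p = 0.06 to 0.11). In all, 2 of the 6 synthetases rose and 4 fell, beside 26.6% and 41.1% of all genes tested. Acsbg1 held 59.2% ± 0.692 of the summed level of the 6 genes untreated and 43.5% ± 1.88 with cocktail, Acsl5 13.8% ± 0.512 and 24.6% ± 1.41, and Acsl4 2.58% ± 0.331 and 6.15% ± 0.642 (SD, n = 4). The sum itself dropped from 123 ± 3.83 to 100.04 ± 1.63 FPKM.

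**Figure D4:**
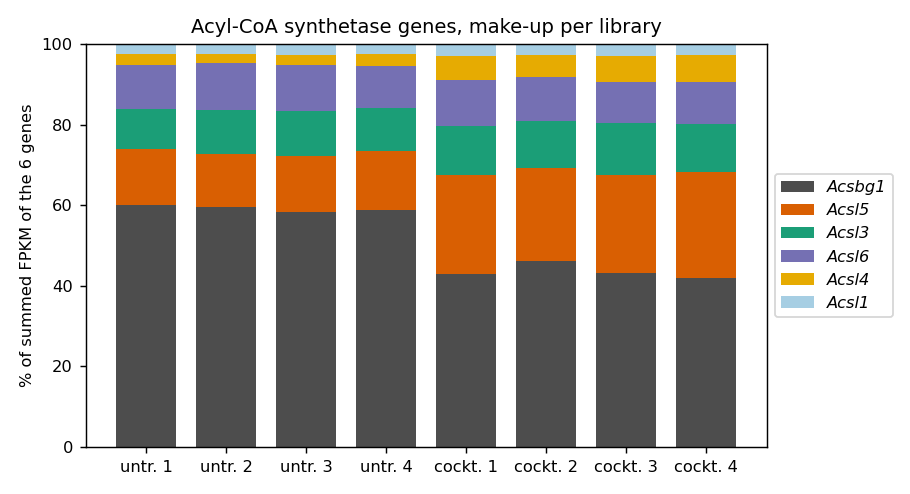
Share of each of 6 acyl-CoA synthetase genes in their summed FPKM, as stacked bars of 100% for each library (untr., untreated; cockt., cocktail). Acsbg1 takes between 58.4% and 60.0% in untreated and between 41.9% and 46.2% in cocktail libraries, and Acsl5 and Acsl4 take larger shares with cocktail.

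The start region of Acsbg1, the member with the largest fall, is printed for the sites it holds. The RefSeq window is chr9:54661886-54662135 of GRCm38.p6, minus strand, with capitals as above.
Acsbg1: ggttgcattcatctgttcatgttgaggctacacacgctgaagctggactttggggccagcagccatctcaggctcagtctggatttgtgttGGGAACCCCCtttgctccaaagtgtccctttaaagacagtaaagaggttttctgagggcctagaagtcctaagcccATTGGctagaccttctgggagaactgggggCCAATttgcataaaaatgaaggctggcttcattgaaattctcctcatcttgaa
The capitals mark 1 match to the NF-kB consensus, with its first base 159 bases before the start site, and 2 CCAAT boxes, on opposite strands, at 83 and 53 bases before it.

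Of the genes that bind or store fatty acids, Fabp7 rose. Fabp7, the brain fatty acid binding protein of radial glia and astrocytes, read 359, 346, 335 and 326 FPKM untreated and 445, 455, 513 and 510 FPKM with cocktail. Cocktail libraries 3 and 4 were the highest, the same libraries in which microglial markers summed highest, and all 4 exceeded every untreated library. The rise was 1.41-fold, at a log2 change of 0.49 (standard error 0.050, limma, adjusted p = 3.2e-06), and 0.40 without cocktail libraries 3 and 4 (limma, adjusted p = 8.9e-06). Fabp5, the epidermal-type binding protein, was at 27.0 ± 2.20 and 25.2 ± 1.92 FPKM (SD, n = 4) with overlapping libraries (limma, adjusted p = 0.19). Without cocktail library 4 it was called lower, at -0.14 (limma, adjusted p = 0.042).

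Plin2, which codes for a coat protein of lipid droplets, read 17.5, 16.0, 17.3 and 16.9 FPKM untreated and 15.6, 14.7, 16.6 and 20.1 FPKM with cocktail. Cocktail library 4 stood above all others and cocktail library 2 below all others, so the mean hardly differed (log2 change -0.02, limma, adjusted p = 0.80). Without cocktail libraries 3 and 4 the row was called lower, at -0.15 (limma, adjusted p = 0.017). The deposited row of this name carries an NCBI gene number that RefSeq gives to a neighbouring transcribed pseudogene, so it is uncertain which of these genes was counted. Of 16 other genes of lipid droplets and lipolysis, 11 were tested, of which 4 rose, 3 fell and 4 were not called. Calls were made for 63.6% of those tested, beside 67.7% of all genes tested. Pnpla2, the first lipase of droplet fat, rose from 32.9 ± 0.967 to 39.6 ± 1.92 FPKM and Mgll, the last lipase, from 6.46 ± 0.317 to 8.82 ± 0.352, while Abhd5, the co-activator of the first, fell from 12.5 ± 0.293 to 11.6 ± 0.465 (SD, n = 4). Among 13 genes of uptake and of thioesterases, which free fatty acids from coenzyme A, 1 rose and 5 fell of 12 tested. The remaining 6 were not called. Beside these counts, 26.6% of all genes tested rose and 41.1% fell. Slc27a1, a fatty acid transporter, fell from 27.0 ± 1.5 to 17.7 ± 0.478 FPKM, and Acot11 from 22.5 ± 1.1 to 11.4 ± 0.775, while Acot7, the brain-type thioesterase, rose from 9.84 ± 1.56 to 15.6 ± 0.423 (SD, n = 4).

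In mitochondrial beta-oxidation, 4 of 7 members fell, 1 rose and 2 were not called, with a median log2 change of -0.21. Calls were made for 71.4% of these members and for 67.7% of all genes tested (41.1% lower, 26.6% higher). Cpt1a, the carnitine palmitoyltransferase that controls entry of long chains into mitochondria, read 50.4, 48.9, 49.3 and 46.9 FPKM untreated and 29.5, 30.2, 29.2 and 29.1 FPKM with cocktail. The cocktail libraries were almost equal to each other and far below the untreated ones. Its fall was 1.66-fold, at a log2 change of -0.71 (standard error 0.030, limma, adjusted p = 9.4e-10). Cpt2, the partner enzyme on the inner membrane, overlapped between groups at 16.2 ± 0.914 FPKM without and 16.7 ± 0.511 with cocktail (limma, adjusted p = 0.36). The level of Cpt1a over that of Cpt2 went from 3.03 ± 0.222 to 1.76 ± 0.079.

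The 3 acyl-CoA dehydrogenases among the members, which start each round on chains of different length, did not move alike. Acadm, for medium chains, read 56.7, 57.1, 52.8 and 50.2 FPKM untreated and 32.8, 34.5, 33.5 and 33.3 FPKM with cocktail, a clear drop in all 4 libraries. The fall was 1.62-fold (log2 change -0.67, standard error 0.041, limma, adjusted p = 2.8e-08). Acadl, for long chains, went from 55.2, 54.5, 53.6 and 53.7 FPKM to 43.1, 42.1, 45.4 and 44.8 FPKM, a smaller fall without overlap (log2 change -0.30, standard error 0.030, limma, adjusted p = 2.3e-06). Acadvl, for very long chains, read 49.99, 51.5, 49.7 and 49.1 FPKM untreated and 56.6, 57.0, 57.6 and 57.9 FPKM with cocktail. It was the only member of this group that rose, by 0.19 on the log2 scale (standard error 0.025, limma, adjusted p = 3.2e-05). Acadm over Acadvl therefore moved from 1.08 ± 0.050 to 0.585 ± 0.013 (SD, n = 4).

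Hadha and Hadhb encode the alpha and beta subunits of the trifunctional protein, which carries out the remaining steps on long chains. Hadha read 67.0, 65.1, 65.8 and 64.1 FPKM untreated and 65.7, 67.2, 69.5 and 67.7 FPKM with cocktail, overlapping between groups (log2 change 0.04, limma, adjusted p = 0.18). Hadhb read 17.4, 16.8, 16.8 and 17.4 FPKM untreated and 14.9, 14.6, 14.7 and 14.3 FPKM with cocktail, and fell without overlap (log2 change -0.21, standard error 0.031, limma, adjusted p = 6e-05). The level of Hadha over that of Hadhb was 3.83 ± 0.094 untreated and 4.62 ± 0.150 with cocktail (SD, n = 4), also without overlap. After median-ratio rescaling Hadha was called higher at 0.12 (limma, adjusted p = 0.0015). The pair is transcribed in opposite directions from start sites 272 bases apart on chromosome 5, Hadha at 30119423 to 30154980 and Hadhb at 30155253 to 30184593. Its shared start region is printed because both genes, with unlike responses, begin there. The window is chr5:30155003-30155252 of GRCm38.p6 on the plus strand, the strand of Hadhb, and shares 228 of its 250 bases with that of Hadha.
Hadhb: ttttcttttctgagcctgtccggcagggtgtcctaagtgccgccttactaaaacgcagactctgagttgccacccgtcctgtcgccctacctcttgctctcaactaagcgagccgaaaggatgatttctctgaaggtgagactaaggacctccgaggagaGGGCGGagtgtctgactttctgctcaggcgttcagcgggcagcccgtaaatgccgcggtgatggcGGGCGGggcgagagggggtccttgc
The capitals mark 2 GC boxes, and none of the other motifs above was found. The part of these letters in either response was not tested.

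Other genes of mitochondrial oxidation were divided as well. All 17 on the list were tested, of which 4 rose, 9 fell and 4 were not called, with a median log2 change of -0.10. That is 76.5% called, beside 67.7% of all genes tested. Slc22a5, the importer of carnitine into the cell, fell from 12.9 ± 0.931 to 8.02 ± 0.197 FPKM, and Acaa2, the thiolase of medium chains, from 28.9 ± 1.17 to 20.2 ± 1.32 (SD, n = 4). Hadh, the dehydrogenase of short and medium chains, rose from 51.2 ± 1.05 to 69.3 ± 4.25 FPKM, and Eci1, an isomerase needed for unsaturated chains, from 22.8 ± 1.26 to 34.5 ± 0.499. Falls and rises thus stood side by side at successive steps of the pathway.

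Peroxisomes take over the chains that are too long for mitochondria. Of 16 peroxisomal genes, 15 were tested, of which 4 rose, 5 fell and 6 were not called, with a median log2 change of 0.02. Calls were made for 60.0% of those tested, beside 67.7% of all genes tested. Abcd2, a transporter of very long chains into peroxisomes, rose 2.76-fold, from 2.55 ± 0.235 to 7.04 ± 0.357 FPKM (SD, n = 4; log2 change 1.18, standard error 0.057, limma, adjusted p = 3.3e-09). Its relative Abcd3, a transporter of the same family, fell from 46.7 ± 1.59 to 42.2 ± 0.276 FPKM. Acaa1a, a thiolase with a close copy in the genome, rose from 34.7 ± 0.608 to 58.6 ± 1.69 FPKM. Crot, which hands shortened chains on to mitochondria as carnitine esters, fell from 27.5 ± 0.513 to 18.1 ± 0.923 FPKM.

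**Figure D5:**
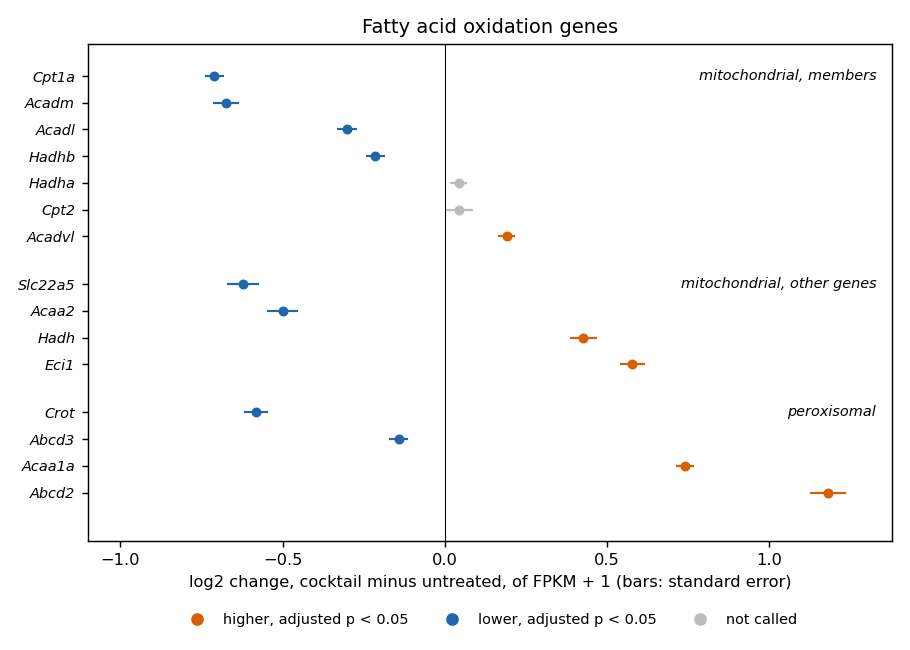
Log2 change of FPKM + 1 with its standard error for 7 members and 8 other genes of mitochondrial and peroxisomal fatty acid oxidation, sorted within each list; orange genes rose, blue genes fell and grey genes were not called. Cpt1a (-0.71) and Acadm (-0.67) mark the low end of the mitochondrial members, and Abcd2 (1.18) is the highest value plotted.

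The nuclear receptors that fatty acids activate were at low levels or were not called. Ppara, the receptor best known for switching on oxidation genes in liver, had 0.459 ± 0.096 FPKM untreated and 0.418 ± 0.020 with cocktail (SD, n = 4), with overlapping libraries, and was not tested. Ppard read 8.91, 9.41, 8.82 and 8.99 FPKM untreated and 10.1, 9.97, 9.35 and 9.31 FPKM with cocktail, with overlap only through untreated library 2 (log2 change 0.09, limma, adjusted p = 0.063). It was called higher after median-ratio rescaling, at 0.16 (limma, adjusted p = 0.0048), and without untreated library 2 or cocktail library 4, at 0.11 each (limma, adjusted p = 0.044 and 0.047). Of 10 partners and known targets of these receptors, 6 were tested, of which 2 rose and 3 fell. That is 83.3% called, beside 67.7% of all genes tested. Angptl4, a secreted inhibitor of lipoprotein lipase and a PPAR target, rose from 1.92 ± 0.261 to 17.5 ± 1.12 FPKM, a log2 change of 2.66 (standard error 0.067, limma, adjusted p = 1.5e-11). Pdk4, a kinase that spares glucose when fatty acids are burned and another PPAR target, fell from 11.6 ± 0.475 to 5.87 ± 0.240 FPKM, a log2 change of -0.87 (standard error 0.043, limma, adjusted p = 3.8e-09). Ppargc1a, a coactivator of oxidation genes, rose from 4.77 ± 0.210 to 5.81 ± 0.130 FPKM, and Rxra, the partner receptor, fell from 10.3 ± 0.559 to 8.47 ± 0.455.

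Set side by side, the 3 arms of the list had median log2 changes of 0.22 for saturated elongation (3 rose of 3 tested), -0.60 for polyunsaturated synthesis (3 fell of 3 tested) and -0.21 for beta-oxidation (4 fell and 1 rose of 7), beside -0.05 for all genes tested. Their summed levels went from 21.3 to 26.7, from 629 to 404 and from 306 ± 6.84 to 263 ± 3.18 FPKM. In none of these sums did the groups overlap. Elovl4, which lengthens both saturated and polyunsaturated chains, was placed in none of these arms. It fell, with a log2 change of -0.29 (limma, adjusted p = 0.00094). Most of the polyunsaturated sum came from Fads2, at 444 FPKM untreated and 278 FPKM with cocktail. Over all genes tested, 26.6% rose, 41.1% fell and 62.7% showed no overlap between groups. Median-ratio rescaling, which moved the median of all genes from -0.05 to 0.02, left the 3 genes of saturated elongation called higher and the 3 tested genes of polyunsaturated synthesis called lower. Elovl6, whose groups overlapped, lost its call under other alternatives given above. In the rest of this paragraph only the rescaling is described. In beta-oxidation the rescaling left 4 genes lower (Cpt1a, Acadm, Acadl and Hadhb) and Acadvl higher (log2 change 0.27), and it added calls for Hadha and Cpt2, both higher at 0.12 (limma, adjusted p = 0.0015 and 0.025), so that 3 of the 7 were then higher. Under it 13 members were called higher and 12 lower, where the values as deposited gave 8 and 15, and over all genes 4281 were called higher and 3976 lower, where they gave 3151 and 4872.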

How the data were processed

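Polyadenylated RNA of 4 untreated and 4 cocktail-treated astrocyte libraries was measured. The authors deposited FPKM values for 21878 genes. Build mm10 and DESeq stand in the submitters' processing notes. The aligner, the counter and its strand setting were not given in the sources used here. Within a gene, FPKM values stood in ratios of whole numbers (relative tolerance 1e-11), which gave the fragments of 16557 genes and the library totals. No pair of libraries agreed within sampling noise: chi-square per gene was 2.11 to 4.50 in untreated and 2.29 to 6.79 in cocktail pairs.

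Differences between groups were tested two-sided with limma 3.58.1 under R 4.3.3. It was fitted to log2(FPKM + 1), without covariates and with a trend of variance on level, to 11845 genes that reached 1 FPKM in 4 or more of the 8 libraries, with Benjamini-Hochberg adjustment and a threshold of 0.05. The script was tested on simulated data. Log2 changes are cocktail minus untreated and are too small for genes of low FPKM; folds are ratios of mean FPKM. The 4 members below the filter were described without a test.

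All members were named. From each list of other pathway genes, up to 4 called genes with groups that did not overlap and at least 5 FPKM in the higher group were named by size of change; Tecr, Abcd3, Scd3, Scd4, Cd36, Pparg and Elovl3 were added after their values were seen, and some genes of these lists are not reported here by name. Members and lists were chosen with earlier results of these data known, and no list was tested as a set. Positions and start regions came from RefSeq on GRCm38, which mm10 names, by NCBI gene number. Alternatives were a pseudocount of 0.1, no filter, a mean of at least 5 FPKM, median-ratio rescaling, no trend, voom on the recovered fragments, the replicate number as a block, and leaving out each library, or cocktail libraries 1 and 2, or 3 and 4.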

Additional observations from a re-analysis of the deposited data

Results flagged for a closer look

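Among the 70 sets of 4 libraries checked (35 genes in 2 groups), 1 held a library far from the others. Acsl6 was at 12.59 FPKM in untreated library 4, below the nearest untreated value of 14.052 FPKM, a gap of 0.854 of the group's range, which is past Dixon's 95% critical value for 4 samples. Chance flags about 1 in 20 such sets. The fall of Acsl6 was called with and without this library.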

How the results depend on the processing

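Of the 31 tested members, 19 were called in 1 direction and kept that call under every one of 17 alternatives that gave them a value, and 12 changed a call or a sign under at least 1. With a mean of at least 5 FPKM only 27 members were tested. Rescaling by median ratios was the alternative that moved the counts most, to 13 members called higher; Fasn, Acaca, Cpt2, Hadha and Ppard entered, and Scd1, Acsl1 and Acsl3 lost their call. Signs turned only in genes that were not called: Fads3 was at 0.0433 after rescaling and 0.0303 without cocktail libraries 3 and 4, and Plin2 at 0.0497 after rescaling, 0.105 without cocktail libraries 1 and 2, and -0.109 to 0.0333 with each library left out in turn. Leaving out each library gave 7 to 8 members higher and 13 to 15 lower, against 8 and 15. Fads3 was called lower without cocktail libraries 1 and 2, at -0.0923 (limma, adjusted p = 0.043). Same-numbered libraries correlated at -0.044 to 0.086 in their deviations from the group means, and differently numbered ones at -0.105 to 0.053. With 4 libraries per group, such correlations cannot decide whether the replicate numbers pair the libraries. With the replicate block 3121 genes were called higher and 4829 lower, and 8 and 14 members; Acsl1 lost its call (limma, adjusted p = 0.052). With no filter Acacb was called lower and Elovl6 and Acsl1 lost their call. Depth limits what can be said of Scd3, of Scd4 with cocktail and of Elovl3, which held 10 fragments or fewer per library.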

Other observations

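Cd36, a scavenger receptor that takes up fatty acids, read 2.46, 1.52, 1.70 and 1.67 FPKM in untreated and 1.62, 1.379, 4.66 and 5.98 FPKM in cocktail libraries (limma, adjusted p = 0.16). Cocktail libraries 3 and 4 stood above all others, and microglial markers summed highest in the same libraries. Pparg, the PPAR of fat storage, was at 0.749 ± 0.022 FPKM untreated and 0.386 ± 0.026 with cocktail (SD, n = 4). Its libraries did not overlap between groups, and it was below the filter. Elovl3, the remaining long-chain elongase gene of the list, was at or near 0, at 0.0191 ± 0.0240 and 0.0446 ± 0.0594 FPKM.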
